A study of Mus musculus with 2 samples.

Results

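Ccl12, Ccl9, Pf4, Ppbp and Ackr3 are the 4 chemokine genes and the atypical chemokine receptor gene described here. They were taken by name, as 5 of the 379 genes of a Xenium panel, and transcripts below a quality score of 20 were left out. Xenium images single RNA molecules in a tissue section, so that every transcript has a gene, a position and, where it falls inside a segmented cell outline, a cell. The tissue was dorsal skin of C57BL/6 mice, shaved and depilated, at day 7. SspA and HDM together were applied epicutaneously in the SspA+HDM group, and PBS was applied by the same route in the mock group. There was 1 sample per treatment, as a 5-µm section of formalin-fixed, paraffin-embedded skin, so no difference has a replicate check and no test was run. Intervals are at 95% and cover counting error only. The panel held 1 further gene named as a chemokine or chemokine receptor, Cxcr2.

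Chemokines are small secreted proteins that guide leukocytes through receptors on the cell surface. Ccl12 (also called MCP-5) is a mouse CC chemokine that acts on Ccr2, the receptor of inflammatory monocytes. Ccl9 (MIP-1 gamma) is a mouse CC chemokine made by myeloid cells that acts on Ccr1. Pf4 (Cxcl4) is stored in platelet granules and is also made by tissue macrophages. Ppbp encodes the precursor of Cxcl7, a platelet chemokine that attracts neutrophils through Cxcr2. Ackr3 (also called CXCR7) binds Cxcl12 without the usual G-protein signal and removes it from the tissue.

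All 5 genes were found in RefSeq's GRCm38.p6 tables, and the 4 ligand genes lie on 2 chromosomes. Ppbp (chr5:90768518-90770063) and Pf4 (chr5:90772435-90773383) are 2371 bases apart on the plus strand. Ccl12 (chr11:82101845-82103399, plus strand) and Ccl9 (chr11:83572917-83578636, minus strand) share a chromosome, and Ackr3 is at chr1:90203980-90215724 on the plus strand. The 250 bases before each ligand gene's start are printed because 3 of these genes were found beside macrophage transcripts and the fourth, Ppbp, less so. They run 5′ to 3′ on the gene's own strand, with motif matches in capitals.
Pf4 (chr5:90772185-90772434, plus strand): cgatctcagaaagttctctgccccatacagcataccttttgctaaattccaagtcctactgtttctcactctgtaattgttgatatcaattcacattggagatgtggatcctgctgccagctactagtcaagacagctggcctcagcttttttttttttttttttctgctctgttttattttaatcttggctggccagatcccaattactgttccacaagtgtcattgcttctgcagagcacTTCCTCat
Ppbp (chr5:90768268-90768517, plus strand): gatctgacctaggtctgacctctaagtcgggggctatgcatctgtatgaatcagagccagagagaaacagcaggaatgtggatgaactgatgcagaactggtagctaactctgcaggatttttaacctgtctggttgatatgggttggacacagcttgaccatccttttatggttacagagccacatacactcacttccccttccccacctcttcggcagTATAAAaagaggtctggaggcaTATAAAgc
Ccl12 (chr11:82101595-82101844, plus strand): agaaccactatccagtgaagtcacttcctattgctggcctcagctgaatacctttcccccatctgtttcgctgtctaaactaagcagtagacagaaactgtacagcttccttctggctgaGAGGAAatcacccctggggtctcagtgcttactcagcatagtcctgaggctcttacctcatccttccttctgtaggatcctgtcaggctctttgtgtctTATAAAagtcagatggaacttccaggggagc
Ccl9 (chr11:83578637-83578886, minus strand): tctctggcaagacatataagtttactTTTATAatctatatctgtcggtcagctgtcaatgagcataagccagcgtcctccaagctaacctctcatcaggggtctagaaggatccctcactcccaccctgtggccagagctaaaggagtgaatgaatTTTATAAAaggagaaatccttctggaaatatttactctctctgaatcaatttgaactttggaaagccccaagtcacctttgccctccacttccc

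Motifs were searched on both strands, namely GAGGAA, the core bound by the myeloid factor PU.1, AGATAA, bound by GATA factors, and TATAAA, the TATA box. GAGGAA was in 23.3% of 32851 promoter windows of the same length, AGATAA in 9.99% and TATAAA in 12.4%. Pf4 had a GAGGAA match on the opposite strand, 8 to 3 bases before the start, and no TATAAA. Ccl12 had GAGGAA 130 to 125 bases and TATAAA 31 to 26 bases before the start. Ppbp had TATAAA at 30 to 25 and at 8 to 3 bases before the start, and no GAGGAA. Ccl9 had no GAGGAA either. The match therefore did not separate the 3 genes found beside macrophage transcripts from Ppbp. The TATAAA matches of Ccl9 were farther out, at 92 to 87 bases and, on the opposite strand, at 94 to 89 and at 224 to 219 bases, the first pair overlapping. AGATAA was in none of the 5 windows. A match describes these letters and is not evidence that a factor binds there.

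The SspA+HDM section held 46142 cell outlines with 7929474 transcripts of that quality, a median of 121 per cell, and the mock section held 15932 outlines with 2325265, a median of 103. No cell identifier was shared between the sections. Each section was made of 2 strips of skin, 7.44 and 7.47 mm long in SspA+HDM and 6.91 mm each in mock. Strips are parts of a section and not replicates. The outer face of the muscle lay 207 and 197 µm below the epithelium in the SspA+HDM strips, against 97.1 and 98.9 µm in the mock strips. The share of a member's deposited transcripts that reached the quality score ran from 46.7% (Ppbp) to 81.3% (Ccl9) in SspA+HDM, against 51.4% (Ppbp) to 79.4% (Ccl9) in mock. Ccl12 passed at 68.8% in SspA+HDM and 54.5% in mock. Detection of one member by another member's probes was not tested.

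Ccl12 was the member that was higher with SspA+HDM. Its level, given as CPM (transcripts of a gene scaled to an equal total of panel transcripts inside outlines), was 168 and 149 in the 2 SspA+HDM strips, against 51.7 and 62.2 in the 2 mock strips. Both SspA+HDM strips lay above both mock strips. Over the whole section, 1251 transcripts gave 158 CPM in SspA+HDM and 133 gave 57.2 CPM in mock, a ratio of 2.76 (2.31 to 3.32). The ratio was 2 or more for 51 of the 346 genes (14.7%) that reached 100 transcripts in either section, and Ccl12 had the 31st highest ratio. It was the only member past that size.

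Ccl9, Pf4 and Ackr3 took a smaller part of the panel's transcripts in SspA+HDM. Ccl9 was at 1773 and 1988 CPM in the SspA+HDM strips, against 2633 and 2707 CPM in the mock strips. Its whole-section ratio was 0.708 (0.687 to 0.729). Pf4 was at 1382 and 1580 CPM in the SspA+HDM strips, against 1721 and 1851 CPM in the mock strips, with a ratio of 0.833 (0.804 to 0.863). For both ligands the strips of the sections did not overlap, and the differences were under 2-fold. Ackr3 was at 890 and 902 CPM in the SspA+HDM strips, against 1432 and 1419 CPM in the mock strips. Its ratio was 0.628 (0.603 to 0.655), the lowest of the 5. Ppbp, the rarest member with 225 transcripts in SspA+HDM outlines and 72 in mock, was at 25.4 and 30.9 CPM in the SspA+HDM strips, against 35.3 and 27.0 CPM in the mock strips. These strips overlapped, and the interval of its ratio (0.916, 0.700 to 1.21) spans 1. A difference of 2-fold or more toward lower levels was found for 44 of the 346 genes (12.7%) and for 0 of the 5 members. The median log2 ratio of the 346 genes was 0.05.

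The direction depends on what the transcripts are counted against. Per mm of skin surface all 5 members were higher in SspA+HDM, and that section also held more cells per mm, 2885 and 3299 in its strips against 1086 and 1218 in the mock strips. Ccl12 had 83.9 transcripts per mm in SspA+HDM and 9.63 in mock, and Ccl9 had 1005 in SspA+HDM and 449.9 in mock. The ratios per mm ran from 1.98 for Ackr3 to 8.71 for Ccl12. Per cell outline, Ccl12 was 3.25-fold higher, Ccl9 was at 0.833 of mock, Pf4 at 0.981, Ppbp at 1.08 and Ackr3 at 0.740. In such section totals, fewer cells of a type and less RNA per cell cannot be told apart.

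**Figure D1:**
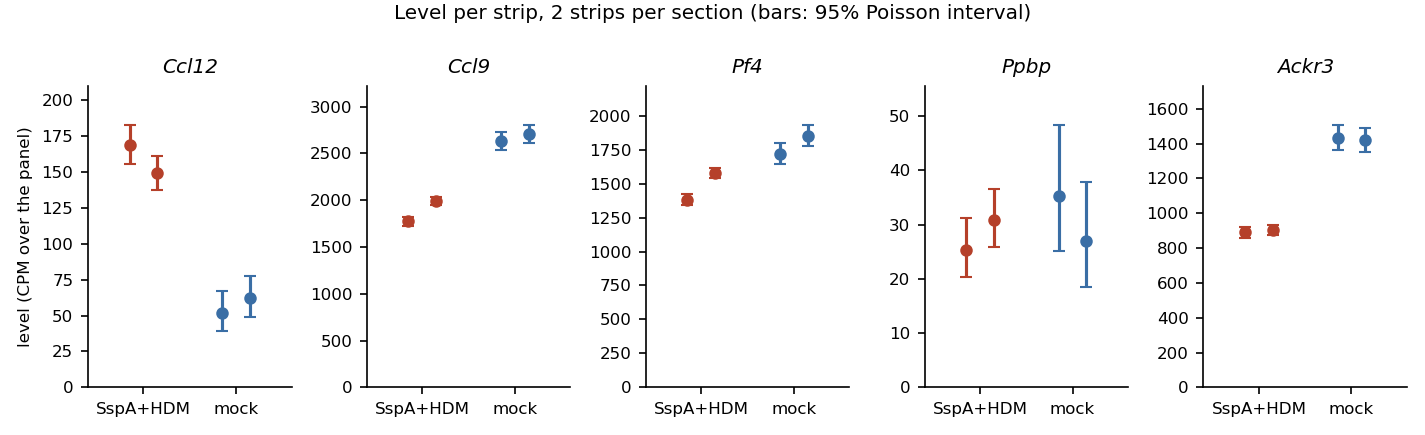
Level of each member in CPM in each strip of skin, with the SspA+HDM section on the left and mock on the right of each panel; every axis starts at 0. The SspA+HDM strips lie above the mock strips for Ccl12 (168 and 149 against 51.7 and 62.2 CPM), below them for Ccl9, Pf4 and Ackr3, and overlap them for Ppbp.

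The ligand genes of the monocyte and macrophage lineage were then read by cell class. Cells were clustered without the 5 members, and 20 of 28 clusters were named in 9 classes from marker genes. The macrophage-or-monocyte-like cluster was led by Ms4a6c, Mpeg1, Ms4a7, Clec4a3 and Ctss. It held 2192 outlines (4.75%) in SspA+HDM and 563 (3.53%) in mock, which is 147 and 40.8 per mm. The 7 macrophage markers on the panel summed to 5185 and 5461 CPM in the SspA+HDM strips, against 4074 and 4099 CPM in the mock strips. Csf3r, the receptor of granulocyte colony-stimulating factor, was also among the genes leading this cluster and was 2.98-fold higher in it in SspA+HDM. Its part in the results below was not tested.

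Within macrophage-or-monocyte-like cells the 2 CC chemokines differed in opposite directions. Ccl12 had 427 transcripts and 2764 CPM in SspA+HDM, against 46 transcripts and 1121 CPM in mock, a ratio of 2.47 (1.82 to 3.42). Its strips were at 2707 and 2814 CPM in SspA+HDM, against 826 and 1418 CPM in mock, without overlap. Ccl9 was at 16245 and 20504 CPM in the SspA+HDM strips, against 30216 and 28310 CPM in the mock strips, also without overlap. Its ratio was 0.632 (0.591 to 0.677). Pf4 was at 15766 CPM in SspA+HDM and 15596 CPM in mock, a ratio of 1.01 (0.926 to 1.10). Under each of 8 other settings its log2 ratio was below 0, from -0.26 to -0.03, so that its direction is not settled. The median log2 ratio of the 146 genes measured in this class was 0.21, and 31 of them (21.2%), Ccl12 included, had a ratio of 2 or more. The class markers themselves were not level: Ms4a7 was 2.12-fold and C5ar1, the C5a receptor, 1.76-fold higher, Ms4a6c and Clec4a3 had ratios of 1.10 and 0.951, and Marco, a scavenger receptor, a ratio of 0.0945.

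The shares of cells told the same order when cells of at least 50 transcripts were reduced to 50. Shallower cells were left out, in this class 827 of 2192 in SspA+HDM and 189 of 563 in mock. Of 1365 SspA+HDM macrophage-or-monocyte-like cells 10.6% (9.04 to 12.4) held a Ccl12 transcript, against 5.35% (3.30 to 8.14) of 374 mock cells. For Ccl9 the shares were 42.9% (40.3 to 45.6) in SspA+HDM and 61.5% (56.4 to 66.5) in mock, and for Pf4 41.8% in SspA+HDM and 37.4% in mock. Without the reduction they were 12.2% in SspA+HDM and 4.97% in mock for Ccl12, 43.9% in SspA+HDM and 63.6% in mock for Ccl9, and 43.2% in SspA+HDM and 42.3% in mock for Pf4. Keratinocyte-like cells were a low reference: reduced to the same depth, 0.117% of SspA+HDM and 0.0600% of mock cells held Ccl12, and 0.491% and 0.690% held Ccl9. The macrophage shares stood far above it, but other classes came nearer. Ccl9 was in 42.3% of SspA+HDM and 33.5% of mock fibroblast-like cells. It was in 29.3% and 22.6% of adipocyte-like cells. Ccl12 was in 4.81% of SspA+HDM and 0.549% of mock mural-like cells. Median depth before the reduction was 60 transcripts in SspA+HDM and 65 in mock for the macrophage-like class, and 242 in SspA+HDM and 164 in mock for keratinocyte-like cells.

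Ccl12 was found with Pf4 more than with Ccl9. In SspA+HDM, 71.7% (63.7 to 78.9) of the 145 macrophage-or-monocyte-like cells with Ccl12 after the reduction also held Pf4, against 38.3% of the 1220 cells without Ccl12. Of the cells with Ccl12, 35.9% held Ccl9, against 43.8% of those without. In mock 20 cells held Ccl12, of which 80.0% held Pf4, against 35.0% of the rest, and 55.0% held Ccl9, against 61.9%. In both sections a cell with Ccl12 thus held Pf4 more often than a cell without it, while the Ccl9 shares differed less.

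The levels of Ccl9 and Pf4 in other classes moved with macrophage-marker transcripts in the same outlines. Whether these came from neighbouring macrophages was not tested. The class with the most Ccl9 transcripts was adipocyte-like (32.7% of Ccl9 in SspA+HDM and 24.97% in mock), ahead of macrophage-or-monocyte-like cells (19.1% and 19.3%). In adipocyte-like outlines, however, the level of Ccl9 followed the macrophage markers. It was 2832 CPM in SspA+HDM and 2905 CPM in mock where the outline held 0 such transcripts. It was 14777 CPM in SspA+HDM and 20628 CPM in mock where the outline held 3 or more. Pf4 did likewise, with 1854 CPM in SspA+HDM and 2241 CPM in mock at 0 marker transcripts, and 11291 CPM in SspA+HDM and 17681 CPM in mock at 3 or more. Over all classes, outlines with 3 or more macrophage-marker transcripts were 10.5% of the cells in SspA+HDM and 6.97% in mock. They held 65.1% and 51.6% of Ccl9, 63.2% and 48.0% of Pf4, 65.4% and 60.2% of Ccl12, and only 22.2% and 12.5% of Ppbp.

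Distances between transcripts, which use no outline, gave the same grouping. In SspA+HDM 79.7% of Ccl12, 80.7% of Ccl9 and 80.5% of Pf4 transcripts lay within 5 µm of a macrophage-marker transcript, ranks 5, 2 and 4 when each is set among 365 other genes with a median of 22.0%. In mock the shares were 69.6%, 66.7% and 64.0%, ranks 3, 6 and 7 among 292 genes with a median of 14.5%. Ackr3 was near the median, at 23.4% in SspA+HDM and 12.98% in mock. Ppbp lay between, at 37.6% in SspA+HDM and 24.7% in mock. Ccl12, Ccl9 and Pf4 were thus found beside macrophage transcripts in both sections, and Ackr3 and most of Ppbp were found elsewhere. This nearness was not confined to macrophage markers. In SspA+HDM 88.7%, 88.1% and 91.1% of the 3 ligands lay as near to a fibroblast-marker transcript. These were ranks 24, 30 and 9 among 366 genes with a median of 61.7%. In mock 83.3%, 86.0% and 86.3% did, ranks 45, 29 and 25 among 293 genes with a median of 63.5%.

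Ordered by class, Ccl12 was highest in macrophage-or-monocyte-like cells in both sections. Among named classes mural-like cells followed, with 1011 CPM (753 to 1330) in SspA+HDM and 360 CPM (202 to 594) in mock. Their cluster was led by the contractile genes Cnn1, Myh11 and Tagln, and whether its cells lie on vessels was not tested. Adipocyte-like cells came next, with 499 CPM in SspA+HDM and 111 CPM in mock. An unnamed cluster led by Coch, Lum and Tnfaip6 held 215 Ccl12 transcripts in SspA+HDM (532 CPM, 463 to 608). In mock it held 18 (172 CPM, 102 to 272). Adipocyte-like Ccl12 had the larger ratio, 4.51 (2.94 to 7.23), and the macrophage-marker transcripts in these outlines were not removed. Split by those transcripts, it was 79.7 CPM in SspA+HDM and 41.5 CPM in mock with 0 of them. It was 190 and 104 CPM with 1 or 2, and 928 and 333 CPM with 3 or more. Outlines with 3 or more were 37.5% of the class in SspA+HDM and 13.6% in mock. They held 84.9% and 56.5% of its Ccl12, from only 23 transcripts in all in mock. Blood-endothelial-like cells held 52 Ccl12 transcripts in SspA+HDM and 0 in mock, where the upper bound was 143 CPM. Keratinocyte-like cells were lowest in SspA+HDM and among the low classes in mock, at 15.1 CPM in SspA+HDM and 17.2 CPM in mock, with a ratio of 0.877 (0.455 to 1.86). The higher Ccl12 level was thus measured in classes that lie below the epithelium, while the keratinocyte interval spans 1.

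Ccl9 was highest in macrophage-or-monocyte-like and fibroblast-like cells, whose intervals overlap in SspA+HDM. The fibroblast-like class was at 16426 CPM in SspA+HDM and 11319 CPM in mock, a ratio of 1.45 (1.28 to 1.64), so its Ccl9 was higher where that of the macrophage-like class was lower. Outlines of this class with 3 or more macrophage-marker transcripts were 19.8% in SspA+HDM and 11.4% in mock, and the macrophage gene Folr2 was among the leading genes of its cluster. Split by those transcripts, its Ccl9 was at 5991 CPM in SspA+HDM and 5935 CPM in mock with 0 of them, at 12386 and 11673 CPM with 1 or 2, and at 33155 and 29025 CPM with 3 or more. Within each level of macrophage markers the fibroblast-like values were thus nearer to each other than over the class. Adipocyte-like cells had a Ccl9 ratio of 1.21 (1.14 to 1.28) and skeletal-muscle-like cells one of 1.54 (1.45 to 1.63). In mural-like cells Ccl9 was at 2875 CPM in SspA+HDM and 5952 CPM in mock, a ratio of 0.483. Hair-follicle-like and keratinocyte-like cells were lowest, at 131 and 71.8 CPM in SspA+HDM and 199.6 and 139.6 CPM in mock. In adipocyte-like outlines split in the same way, Ccl9 was nearly level between the sections with 0 macrophage-marker transcripts. It was lower in SspA+HDM with 1 or 2 (5318 CPM in SspA+HDM and 8264 CPM in mock) and with 3 or more (values above). In skeletal-muscle-like outlines it was 767 CPM in SspA+HDM and 693 CPM in mock with 0, 2593 and 3515 CPM with 1 or 2, and 11294 and 13563 CPM with 3 or more. In both classes Ccl9 was thus lower in SspA+HDM among outlines that held macrophage markers, although the ratio over the class was above 1. When each named class was given its mean share of panel transcripts in both sections, the log2 ratio of Ccl9 was 0.12 in place of -0.50. Unnamed clusters and outlines under 20 transcripts were left out of that value.

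Pf4 had an order like that of Ccl9. After the macrophage-like class came adipocyte-like cells at 6685 CPM in SspA+HDM and 6037 CPM in mock (ratio 1.11, 1.04 to 1.18) and mural-like cells at 5472 CPM in SspA+HDM and 6048 CPM in mock (ratio 0.905, 0.760 to 1.08). In adipocyte-like outlines Pf4 was lower in SspA+HDM at each level of macrophage markers, with 3644 CPM in SspA+HDM and 6099 CPM in mock at 1 or 2, and outlines with 3 or more were 37.5% of the class in SspA+HDM and 13.6% in mock. In mock the intervals of adipocyte-like and mural-like cells overlap, so that their order is not resolved. Fibroblast-like cells were at 4575 CPM in SspA+HDM and 3315 CPM in mock, and keratinocyte-like cells at 51.9 CPM in SspA+HDM and 94.1 CPM in mock. None of the panel's genes was on a list of 13 platelet and megakaryocyte markers, so a platelet source of Pf4 or Ppbp was not tested.

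**Figure D2:**
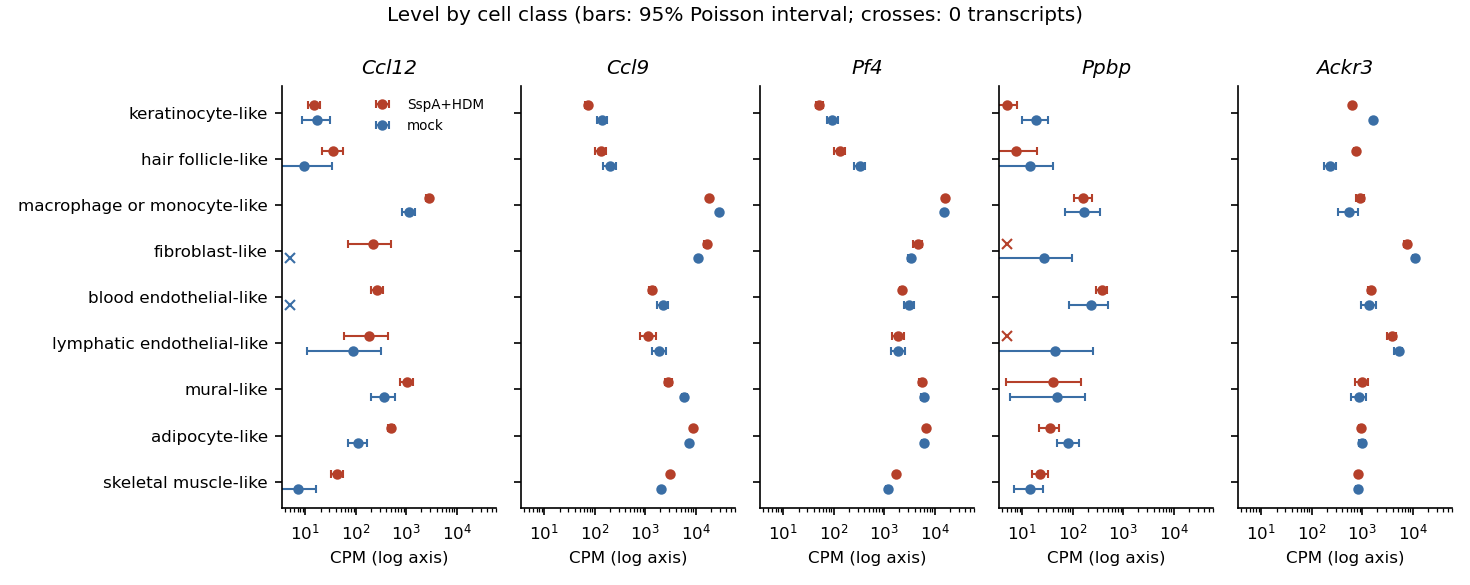
Level of each member in CPM (log axis) in 9 cell classes, with SspA+HDM drawn above mock in each class; bars are exact Poisson intervals and crosses mark classes with 0 transcripts. Ccl12, Ccl9 and Pf4 are highest in macrophage-or-monocyte-like cells, Ackr3 in fibroblast-like cells (7712 CPM in SspA+HDM and 10909 CPM in mock) and Ppbp in blood-endothelial-like cells.

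Depth was measured from the lower edge of the outer epithelial layer. Below that edge the median Ccl9 transcript lay at 198 µm in SspA+HDM and 87.5 µm in mock, and the median Pf4 transcript at 165 µm in SspA+HDM and 73.5 µm in mock. Ccl12 was shallower, at 115 µm in SspA+HDM and 43.9 µm in mock. The median cell lay at 115 µm in SspA+HDM and 58.9 µm in mock, so Ccl9 and Pf4 were deeper than the cells as a whole in both sections. The upper 100 µm held 43.8% of the dermal Ccl12, 16.6% of the Ccl9 and 25.8% of the Pf4 in SspA+HDM, against 92.7%, 58.2% and 72.1% in mock. It held 43.0% of the dermal cells in SspA+HDM and 74.5% in mock. The distance to the muscle differed about as much between the sections as these depths did. Ackr3 departed from this, with medians of 142 µm in SspA+HDM and 136 µm in mock, and 33.6% in SspA+HDM and 31.6% in mock within the upper 100 µm.

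**Figure D3:**
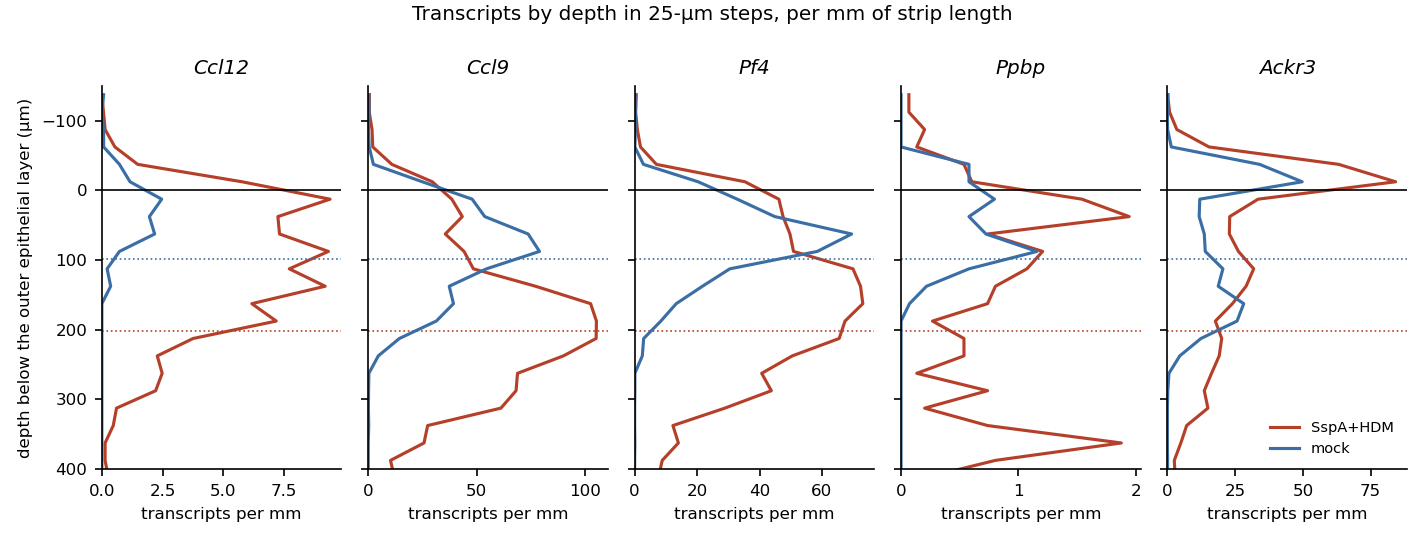
Transcripts of each member per mm of skin by depth in steps of 25 µm, with the SspA+HDM and mock sections as coloured lines; the solid line at 0 is the lower edge of the outer epithelial layer and the dotted lines the outer face of the muscle in each section. Ccl9 peaks at 105 per mm between 175 and 200 µm in SspA+HDM and at 78.8 per mm between 75 and 100 µm in mock, close to the muscle in both, and Ackr3 peaks just above the edge.

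Scaled to the distance between the epithelial edge and the muscle, Ccl9 and Pf4 kept similar places. The space between them was divided midway into a shallow and a deep zone. Ccl9 had 4.60% of its transcripts in the outer epithelial layer, 16.1% in the shallow zone, 44.8% in the deep zone and 34.6% from the muscle face down in SspA+HDM, against 6.32%, 21.3%, 35.7% and 36.7% in mock. For Pf4 these shares were 6.03%, 27.2%, 43.4% and 23.4% in SspA+HDM, against 8.22%, 24.2%, 41.4% and 26.1% in mock. Both genes thus had most of their transcripts in the deep zone and the muscle in either section. Ccl12 lay higher, with 9.79% in the outer layer, 43.2% in the shallow zone, 40.1% in the deep zone and 6.93% from the muscle down in SspA+HDM, against 21.0%, 44.2%, 31.2% and 3.62% in mock. Ppbp had 10.5%, 33.3%, 33.8% and 22.4% in SspA+HDM, against 21.9%, 23.3%, 41.1% and 13.7% in mock. Both had a smaller share in the outer layer in SspA+HDM.

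Depth and macrophage levels were linked for Ccl9. In macrophage-or-monocyte-like cells Ccl9 was at 13015 CPM in the outer layer, 12253 CPM in the shallow zone, 29523 CPM in the deep zone and 40008 CPM from the muscle down in SspA+HDM. In mock the same zones had 19766, 28450, 45911 and 56474 CPM. Ccl9 was therefore lower in SspA+HDM in each of the 4 zones, and higher toward the muscle in both sections. Folr2, a folate receptor of resident tissue macrophages, had the same gradient, with 3213, 5587, 15172 and 25142 CPM in SspA+HDM against 4580, 6486, 15167 and 27548 CPM in mock. F13a1, the factor XIII gene of tissue macrophages, had 14757, 24138, 48032 and 59064 CPM in SspA+HDM against 32180, 29777, 61283 and 68871 CPM in mock, lower in SspA+HDM in each zone like Ccl9. In the shallow zone, which held 1235 of the SspA+HDM cells and 369 of the mock cells of this class, the log2 ratio of Ccl9 was -1.22 (-1.35 to -1.08), and in the deep zone it was -0.64 (-0.84 to -0.42). The difference was thus larger in the shallow zone. The muscle zone held 110 such cells in SspA+HDM and 9 in mock, with 726 panel transcripts in mock, and is given only for completeness.

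Ccl12 in macrophage-like cells rose from the outer layer to the deep zone in both sections, with intervals of these zones that overlap. It was lower from the muscle down, where only 12 transcripts in SspA+HDM and 0 in mock were found. Ccl12 was higher in SspA+HDM in the 3 zones above the muscle face, with intervals that do not overlap in the shallow zone. It was at 2124, 2776, 3440 and 1197 CPM from the outer layer to the muscle in SspA+HDM, against 844, 1179, 1435 and 0 CPM in mock. Pf4 was at 15356, 14708, 18253 and 16063 CPM in SspA+HDM, against 11932, 15257, 21726 and 28926 CPM in mock. Over fixed depths Pf4 in these cells was higher beyond 100 µm than within it in both sections, at 19492 and 13538 CPM in SspA+HDM and at 24575 and 16255 CPM in mock, where only 13 cells lay beyond 100 µm.

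**Figure D4:**
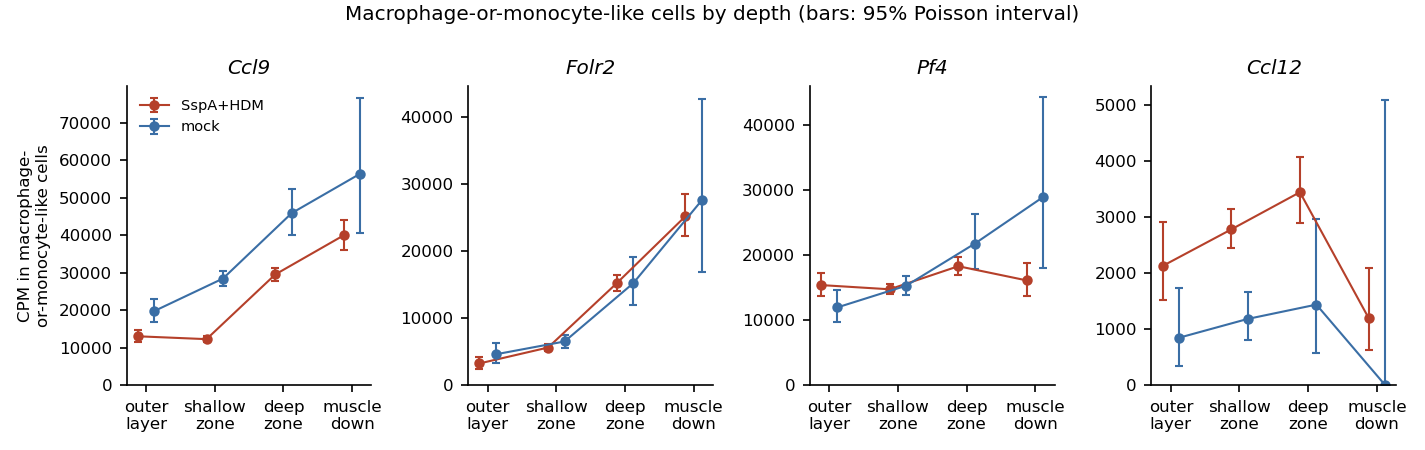
Level in CPM of Ccl9, Folr2, Pf4 and Ccl12 in macrophage-or-monocyte-like cells in 4 zones, from the outer epithelial layer to the muscle and below, for SspA+HDM and mock; bars are exact Poisson intervals. Ccl9 is lower in SspA+HDM in every zone (12253 against 28450 CPM in the shallow zone), Ccl12 is higher in the first 3, and Folr2 follows nearly the same gradient in both.

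The receptor gene Ackr3 had several separate sites. The class with most of its transcripts was keratinocyte-like, with 32.6% of Ackr3 in SspA+HDM and 31.9% in mock. The outer epithelial layer held 2509 Ackr3 transcripts in SspA+HDM and 1188 in mock, of which keratinocyte-like cells held 87.2% and 88.5%. Along the depth axis Ackr3 peaked in the 25 µm just above the lower edge of the epithelium in both sections, at 84.2 transcripts per mm in SspA+HDM and 49.7 in mock, where the basal keratinocytes lie.

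Over all keratinocyte-like cells Ackr3 was at 625 CPM in SspA+HDM and 1657.5 CPM in mock, a ratio of 0.377 (0.350 to 0.406). Of 207 genes measured in this class, 83 (40.1%) were lower by 2-fold or more, so Ackr3 shared that size with many, and the median log2 ratio was -0.56. Different clusters also made up the class in the sections. In SspA+HDM, cluster 10 (3471 cells, median depth 24.0 µm above the edge) held Ackr3 at 3180 CPM, while clusters farther out, 11, 14 and 13, held 13.4, 25.7 and 95.8 CPM. Low levels were not only farther out. Cluster 16, at a median of 4.60 µm below the edge, held 49.6 CPM in 1766 SspA+HDM cells. It had 242 cells and 171 CPM in mock. In mock, cluster 20 (2410 cells, 23.4 µm above the edge) held 2352 CPM and cluster 26 held 117 CPM. Among keratinocyte-like cells within 25 µm of the edge, Ackr3 was at 1806 CPM (1702 to 1915) in 3267 SspA+HDM cells, against 2461 CPM (2268 to 2665) in 1703 mock cells. At matched depth the gap was therefore much smaller than over the whole class, and between clusters 10 and 20 it ran the other way. The mix of clusters within that depth was not matched.

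Fibroblast-like cells had the highest Ackr3 level, at 8562 and 7467 CPM in the SspA+HDM strips, against 11144 and 10682 CPM in the mock strips. The ratio was 0.707 (0.598 to 0.832), without overlap of the strips. This class was 1 cluster led by Retnla, Igfbp6, C3, Mfap5 and Pi16, a gene of adventitial fibroblasts. It held 273 cells in SspA+HDM at a median depth of 308 µm, and 738 in mock at 174 µm, in both cases below the muscle face. It held 2.49% of all Ackr3 in SspA+HDM and 24.9% in mock. From the muscle face down, it held 12.7% of the Ackr3 transcripts in SspA+HDM (172 of 1358) and 53.3% in mock (816 of 1531). The zone below the muscle face thus supplied 18.9% of Ackr3 in SspA+HDM and 44.7% in mock, where it held 11.0% of all cells in SspA+HDM and 19.2% in mock. The amount of tissue below the muscle face in each section cannot be told apart from the treatment. In contrast to Ccl9, Ackr3 in fibroblast-like outlines was lower where macrophage markers were present, at 8986 CPM with 0 of them and 5650 CPM with 3 or more in SspA+HDM, against 13752 and 4029 CPM in mock.

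Lymphatic-endothelial-like cells, a known site of Ackr3, came next, at 3818 CPM in SspA+HDM and 5232 CPM in mock, a ratio of 0.730 (0.555 to 0.958). Blood-endothelial-like cells were at 1471 CPM in SspA+HDM and 1353 CPM in mock (ratio 1.09, 0.764 to 1.59). Mural-like, adipocyte-like and skeletal-muscle-like cells had ratios whose intervals also span 1. Macrophage-or-monocyte-like cells were higher in SspA+HDM, at 899.6 CPM against 536 CPM in mock, a ratio of 1.68 (1.07 to 2.76). Hair-follicle-like cells were higher too, with 747 CPM in SspA+HDM and 232 CPM in mock, a ratio of 3.22 (2.40 to 4.41). Its Ackr3 lay mostly in cluster 22, led by Lhx2 and Tbx1, which held 2233 cells and 1389 CPM in SspA+HDM and 45 cells and 1089 CPM (297 to 2788) in mock. In cluster 25, which held most mock cells of the class, Ackr3 was at 439 CPM in SspA+HDM and 424 CPM in mock. Within these clusters the intervals of the sections overlap. An unnamed cluster led by Lhx2, a hair-follicle transcription factor gene, held Ackr3 at 2385 CPM and was made of 1990 SspA+HDM cells and only 9 mock cells. Another unnamed cluster, led by the matrix and connective-tissue genes Coch, Lum and Tnfaip6, had 2465 CPM in SspA+HDM and 2042 CPM in mock. The ratio was 1.21 (1.04 to 1.41). This cluster held 5315 SspA+HDM and 1526 mock cells, with all 6 fibroblast markers on the panel detected. Fibroblast and macrophage markers tied among its 10 leading genes, so it had no name. Ackr3 was thus lower in SspA+HDM over the fibroblast-like class, which leaves out that larger cluster, and over lymphatic and keratinocyte-like cells. It was higher over macrophage-or-monocyte-like and hair-follicle-like cells and over that larger cluster. In the keratinocyte-like and hair-follicle-like classes these differences went with another mix of clusters. After reduction to 50 transcripts per cell, Ackr3 was in 30.9% (24.1 to 38.3) of SspA+HDM and 35.5% (31.7 to 39.5) of mock fibroblast-like cells and in 13.4% (9.48 to 18.1) of SspA+HDM and 21.3% (15.9 to 27.6) of mock lymphatic cells, with overlapping intervals. In keratinocyte-like cells it was in 3.91% (3.58 to 4.26) in SspA+HDM and 9.22% (8.26 to 10.2) in mock.

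Ppbp was measured by few transcripts, 225 inside outlines in SspA+HDM and 72 in mock. The most frequent negative-control probe had 127 in SspA+HDM and 34 in mock. How many of the Ppbp transcripts were false detections was not tested. Blood-endothelial-like outlines had its highest level in both sections, with 74 transcripts and 374 CPM in SspA+HDM and 6 transcripts and 232 CPM in mock, a ratio of 1.61 (0.707 to 4.54). The strips were at 181 and 530 CPM in SspA+HDM, against 437 and 69.4 CPM in mock, and macrophage-or-monocyte-like cells were at 179 and 147 CPM in SspA+HDM strips, against 243 and 97.8 CPM in mock strips. The first place of blood-endothelial-like cells thus rested on 1 strip in each section. These outlines held 32.9% of Ppbp in SspA+HDM and 8.33% in mock, where adipocyte-like outlines held 23.6% and keratinocyte-like outlines 16.7%. After reduction to 50 transcripts, 1.18% of SspA+HDM and 0.870% of mock cells of this class held a Ppbp transcript. Without outlines, 51.9% of Ppbp transcripts in SspA+HDM lay within 5 µm of a blood-endothelial marker transcript, rank 37 when set among 366 other genes with a median of 27.5%. In mock 37.0% did, rank 38 among 293 genes with a median of 18.4%. Near lymphatic-endothelial markers Ppbp ranked 25 among 369 genes in SspA+HDM and 183 among 296 in mock. Near macrophage markers it ranked 60 among 365 in SspA+HDM and 39 among 292 in mock. The distances thus did not single out blood-endothelial markers. Macrophage-or-monocyte-like cells were at 162 CPM (105 to 239) in SspA+HDM and 171 CPM (68.6 to 351) in mock, so that the order of these classes is not resolved in mock. Adipocyte-like cells had 34.9 CPM in SspA+HDM and 81.9 CPM in mock, from 19 and 17 transcripts. In keratinocyte-like cells it was at 4.86 CPM in SspA+HDM and 18.8 CPM in mock, from 18 and 12 transcripts. The intervals of these 2 ratios, 0.426 (0.210 to 0.872) and 0.258 (0.118 to 0.588), lie below 1. They cover counting error only, and false detections could make up part of such small counts. In SspA+HDM 35.1% of the 171 cells with Ppbp also held Pf4, against 12.8% of cells without it, and in mock 23.2% of 69 did, against 12.99%. Ppbp transcripts were thus spread over several classes at counts not far above a control probe. Cells with them held Pf4 more often than other cells did.

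Cxcr2 is the receptor of the Ppbp product. Of its transcripts in SspA+HDM, 6289 lay in the outer epithelial layer and 962 below it, against 128 and 37 in mock. Macrophage-or-monocyte-like cells held 126 Cxcr2 transcripts (816 CPM) in SspA+HDM and 0 in mock. Cxcr2 was thus mostly in the epithelial layer, and Ppbp mostly below it.

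Over the 9 classes in both sections (18 points that share the libraries and the outlines), the panel genes most like each member were found by Pearson's r of log2(CPM + 10). For Ccl9 they were Folr2 (0.977), C5ar1 (0.974) and F13a1 (0.971). For Pf4 they were Cybb, a subunit of the phagocyte oxidase (0.968), Clec4a3 (0.966) and F13a1 (0.957). For Ccl12 they were Mmp8, a neutrophil collagenase gene (0.868), Rac2, a GTPase of blood cells (0.850), and Csf3r (0.829). The nearest genes of Ackr3 were less close, namely Lyve1, a lymphatic and macrophage receptor (0.720), Prss23 (0.703) and Pou3f3 (0.702). For Ppbp, whose counts are sparse, they were Slc14a1, a urea transporter gene (0.814), Colec11 (0.720) and Mamdc2 (0.715). Between members, Ccl9 and Pf4 were close (0.951), and Ccl12 was less like either (0.654 with Pf4 and 0.551 with Ccl9). These values describe the points and carry no test.

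Along the strips the members were unevenly spread. In windows of 500 µm, 30 in SspA+HDM and 28 in mock, Ccl12 ran from 9.38 to 293 CPM with a median of 128 in SspA+HDM, against 0 to 113 CPM with a median of 47.7 in mock. Ccl9 ran from 394 to 2686 CPM with a median of 1878 in SspA+HDM, against 868 to 4034 CPM with a median of 2746 in mock. Ackr3 ran from 622 to 1237.5 CPM with a median of 934 in SspA+HDM, against 615 to 2151 CPM with a median of 1390 in mock. The windows of the sections overlapped for each of these, although their medians kept the order of the section totals.

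Some transcripts were locally concentrated. The densest circle of 25 µm radius for Ccl9 held 169 transcripts in SspA+HDM, 152 of them in macrophage-or-monocyte-like cells at a depth of 163 µm. It held only 5 Pf4 and 0 Ccl12 transcripts, so that a macrophage-like group with Ccl9 and little Pf4 was present. In mock the densest Ccl9 circle held 49 transcripts with 20 of Pf4. For Pf4 the densest circles held 49 transcripts with 41 of Ccl9 in SspA+HDM and 42 with 26 of Ccl9 in mock. The densest Ackr3 circle held 33 transcripts in SspA+HDM, 32 of them in the cluster led by Lhx2, and 18 in mock, mostly in fibroblast-like cells. For Ppbp 14 of 237 placed transcripts in SspA+HDM fell in 1 circle at 346 µm, in skeletal-muscle-like tissue. In macrophage-or-monocyte-like cells reduced to 50 transcripts, 44.0% (39.96 to 48.2) of SspA+HDM cells with Ccl9 held Pf4, against 40.2% (36.7 to 43.7) of those without. In mock these shares were 39.6% and 34.0%. Within this class Ccl9 and Pf4 thus shared cells little more often than cells without the other gene did. Over all cells without the reduction, 44.0% of SspA+HDM cells with Ccl9 held Pf4, against 8.14% of those without. In mock these shares were 42.7% and 7.48%. In adipocyte-like outlines they were 58.3% and 27.6% in SspA+HDM, against 57.2% and 19.3% in mock.

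**Figure D5:**
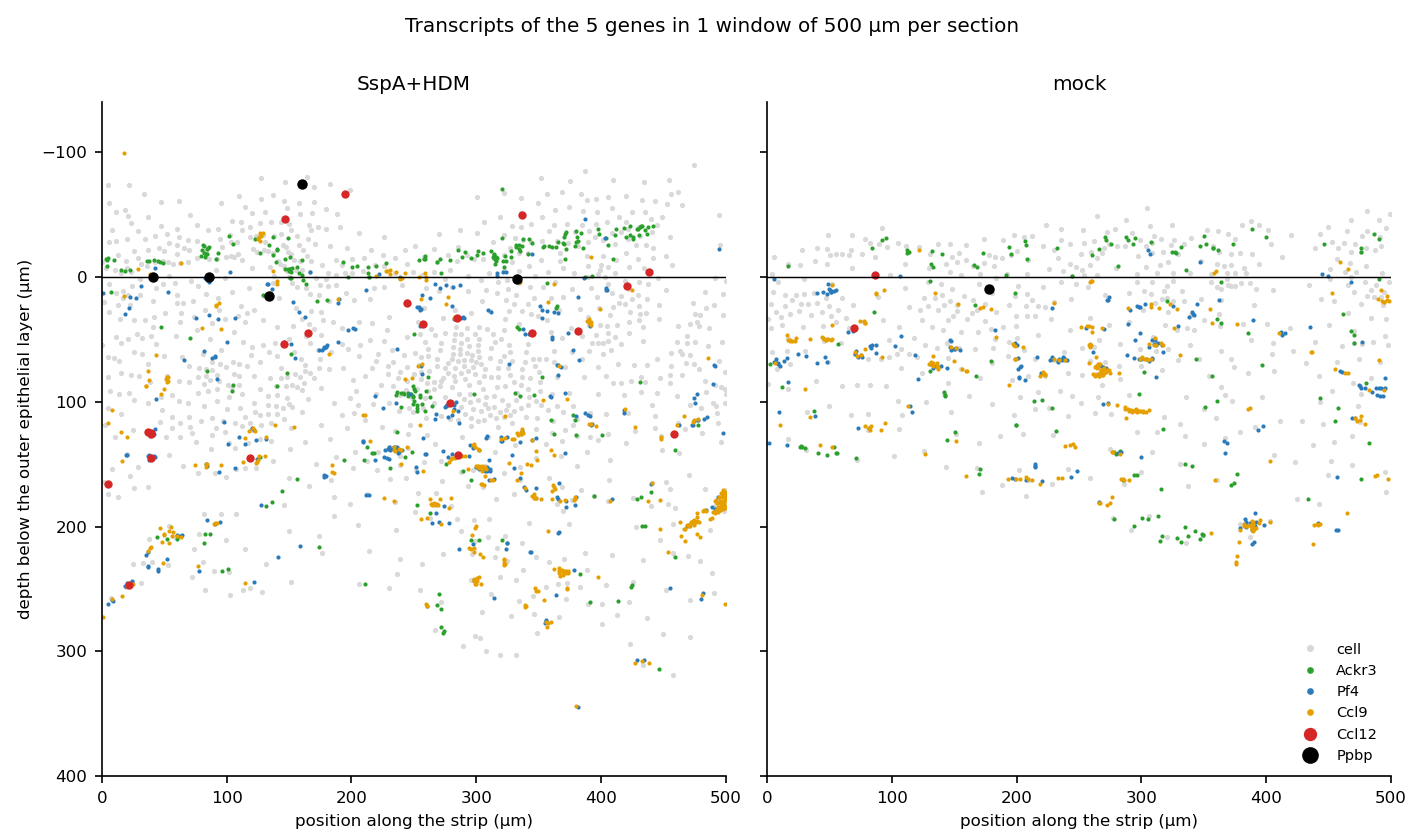
Positions of the 5 members' transcripts (colours) and of cells (grey) in a 500-µm stretch of strip 1 of SspA+HDM (left) and mock (right), chosen as the stretch whose Ccl9 level was nearest the median of its section. Ccl9 (372 transcripts in SspA+HDM and 263 in mock) and Pf4 (318 and 205) fill the tissue above and around the muscle, Ackr3 (264 and 139) also lines the lower edge of the epithelium, and Ccl12 (22 and 2) and Ppbp (5 and 1) are sparse.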

How the data were processed

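For each section the authors deposited decoded transcripts with gene, position, cell and a quality score, and a table of cell outlines, per the file headers. Decoding and segmentation software is not given in the sources used here. Transcripts with a deposited score of at least 20 were 78.1% in SspA+HDM and 79.4% in mock. Positions were taken as µm. Levels are CPM over the panel with exact Poisson intervals, ratios are SspA+HDM over mock with exact conditional binomial intervals, and shares have Clopper-Pearson intervals. Clustering used both sections jointly, outlines of 20 or more transcripts, and no member gene (scanpy 1.11.5, 30 principal components, 15 neighbours, Leiden resolution 1). A name needed 3 detected markers and the most markers among the 10 leading genes. No doublet caller was run. The epithelial edge was the 5th percentile of non-epithelial cells in 50-µm bins, corrected for slope, and the muscle face the 10th percentile of skeletal-muscle-like cells in 100-µm bins. The ratio calculation was tested on simulated data. The named genes are the 5 members, other chemokine-system genes on the panel and the 3 genes most like each member. Further genes that lead a cluster or mark macrophages were chosen after their values were seen. The members, marker lists and comparisons were chosen with earlier results of these data known.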

Additional observations from a re-analysis of the deposited data

How the results depend on the processing

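No test was run, so only values are compared, and the cause of each shift was not tested. Of 106 alternatives, 63 stayed within the main interval and 43 left it. On the log2 scale the whole-section ratio of Ccl12 (1.46) was 1.10 without a quality filter, 1.08 over nuclei and 3.12 per mm. That of Ccl9 (-0.50) was -0.56 without the filter, -0.42 at a score of 30, -0.64 over nuclei, -0.26 per cell, 1.16 per mm and 0.12 with classes at equal weight. That of Pf4 (-0.26) was -0.37, -0.21, -0.54, -0.028, 1.40 and 0.16 under the same 6 settings. That of Ppbp (-0.13) was 0.30 at a score of 30, -0.68 over nuclei and 1.53 per mm. That of Ackr3 (-0.67) was -0.59 without the filter, -0.84 over nuclei, -0.43 per cell, 0.99 per mm and -0.60 with the same class weights. Thus Ccl9, Pf4, Ppbp and Ackr3 change sign per mm, and Ccl9 and Pf4 also with the same class weights. Ppbp, whose main interval spans no change, also changes sign at a score of 30, without the filter (0.003) and per cell (0.11). Keratinocyte-like Ackr3 (-1.41) was -0.45 within 25 µm of the edge. Shares in the upper 100 µm moved with the edge rule. With the 10th percentile, Ackr3 was 34.2% in mock, Ccl9 17.6% in SspA+HDM and 63.0% in mock, and Pf4 28.9% in SspA+HDM and 77.2% in mock. With 100-µm bins, SspA+HDM had 39.1% for Ccl12, 15.5% for Ccl9 and 23.5% for Pf4. Alternatives for macrophage-like Ccl9 and Pf4, fibroblast-like Ackr3, zones, the edge and the densest Ppbp spot were added after seeing the data. Ccl9 in macrophage-like cells (-0.66) kept its direction in 8 of 8, from -1.22 to -0.63, while Pf4 (0.02) ran from -0.26 to -0.03. Fibroblast-like Ackr3 (-0.50) was -1.05 at resolution 2 and -1.13 with the members clustered. In these settings the class held 1026 and 1043 Ackr3 transcripts in SspA+HDM, against 177 in the main result. In mock it held 1015 and 1012, against 826, so the class was not the same set of cells. Separate clustering left too few such cells for a value. No paired analysis was possible because there was 1 sample per treatment.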

Other observations

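Members differed in how often their transcripts lay over a nucleus. Ccl12 did so for 55.1% of its transcripts in SspA+HDM and 58.6% in mock, and Pf4 for 28.0% in SspA+HDM and 27.8% in mock, while the median panel gene was at 44.3% in SspA+HDM and 37.1% in mock. Ccl9 lay between, at 38.0% in SspA+HDM and 34.3% in mock. The order of these 3 macrophage-associated ligands was the same in both sections. The most Ccl9 transcripts in a single outline were 42 in SspA+HDM and 26 in mock, and the most Ccl12 were 10 in SspA+HDM and 6 in mock.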
